A study of Drosophila melanogaster with 36 samples.

Results

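The UDP-glycosyltransferase genes of Drosophila melanogaster were taken as every gene whose symbol begins with Ugt and a number, which gave 35 of the 17582 gene symbols counted. All 35 were annotated as protein coding. The number in a symbol names a sequence family and the letter a subfamily. Family 37 had 8 members, family 35 had 6, families 36 and 303 had 4 each and families 49 and 302 had 3 each. Ugt50B3, Ugt301D1, Ugt304A1, Ugt305A1, Ugt307A1, Ugt316A1 and Ugt317A1 were each the single member of their family.

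Whole wild-type flies of both sexes, of a strain and age not given in the sources used here, were studied on days 1, 2 and 7. Exposed flies had inhaled CMIT/MIT, a mixture of isothiazolinone biocides, as an aerosol at 330 mg/m3 for 1 hour, and control flies had inhaled filtered air. Sex, treatment and day gave 12 groups of 3 libraries each, so that each sex had 18 of the 36 libraries. Total RNA was sequenced from the 3' ends of transcripts, so that levels are compared between genes as read, without division by length.

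UDP-glycosyltransferases are enzymes of the endoplasmic reticulum membrane that join a sugar, in insects mostly glucose from UDP-glucose, to small lipophilic molecules. The product is more soluble and easier to excrete, and the reaction is counted as a conjugation step of detoxification, after oxidation by cytochrome P450s. Fly members are known from gut, fat body, Malpighian tubule (the excretory organ) and the sense organs, where some act on odorants and pheromones.

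Libraries held 4681333 to 15444994 counts in males and 9525565 to 17182966 in females. Levels are given as CPM, counts relative to the library total, scaled by the trimmed mean of M-values (TMM) over all 36 libraries. Of the 36 libraries, 2 carried high levels of both the male RNA roX1 and the yolk protein transcript Yp1 and are called mixed: replicate 3 of the exposed males and replicate 1 of the exposed females, both on day 2. Their summed accessory gland markers were 5487 and 4908 CPM, against 1.52 to 33.8 CPM in the other 17 female libraries and at least 11332 CPM in the other 17 male libraries. For medians and most named genes of exposed flies on day 2, the value without them stands beside the value with them. Counts at an unadjusted p, counts of members without overlap and DESeq2 calls keep them unless said. Nothing in the labels tells whether replicates are separate batches of flies, so p-values measure only the spread between these samples, which may be technical.

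The genes differed in level by more than 3 orders of magnitude, and a few members held most of the family's transcripts. Over the 36 libraries, Ugt49B1 had the highest mean level, 57.7 CPM, followed by Ugt50B3 at 50.5, Ugt301D1 at 47.0, Ugt316A1 at 27.2, Ugt37D1 at 22.4 and Ugt35A1 at 14.2 CPM. The first 3 together made up 52.2% of the summed level of the 35 members and the first 8 made up 82.4%. Mean level was above 10 CPM in 8 members, between 1 and 10 CPM in 13 and below 1 CPM in 14. Counts were present in all 36 libraries for 14 members.

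The low end of the family was below what could be tested. A filter on low counts passed 23 members in the fit of female libraries and 26 in the fits of male libraries and of all libraries. The 9 members that never passed were Ugt35B1, Ugt302E1, Ugt37C1, Ugt37A1, Ugt35E1, Ugt49B2, Ugt37E1, Ugt35D1 and Ugt307A1, with mean levels from 0.00936 to 0.257 CPM. Ugt35B1 is known from the antenna. Ugt307A1 had counts in 2 of the 36 libraries. A count of 3 corresponded to 0.641 CPM of the library total in the shallowest library, and to less in the deeper ones. Most libraries held few or no counts of these members, but single libraries held up to 37 counts (Ugt37C1, 2.63 CPM, an air male of day 1), 31 counts (Ugt35B1, 3.57 CPM, an air male of day 2) and 21 counts (Ugt37A1, 1.99 CPM, replicate 1 of the air females on day 2). Intervals and limits of this kind cover counting error only.

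Neighbouring members could differ widely in level. Of the 35 members, 17 lay on 3R, 11 on 2L, 5 on 2R and 2 on 3L, in the coordinates of the dm6 (BDGP6) assembly. With a gap of at most 20 kb between neighbours, 22 members fell into 6 runs and 13 stood alone. The longest run held 9 members in 26.9 kb, from 3R:11151026 to 3R:11177910, and mixed families 35, 302, 303 and 304. Within it, mean levels ran from 0.0982 CPM for Ugt35E1 to 14.2 CPM for Ugt35A1, a 145-fold range. In the run of Ugt37C2, Ugt37E1 and Ugt37D1, from 2L:16794211 to 2L:16801584, Ugt37E1 had a mean of 0.0342 CPM and its neighbour Ugt37D1, 751 bp away, 22.4 CPM.

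**Figure D1:**
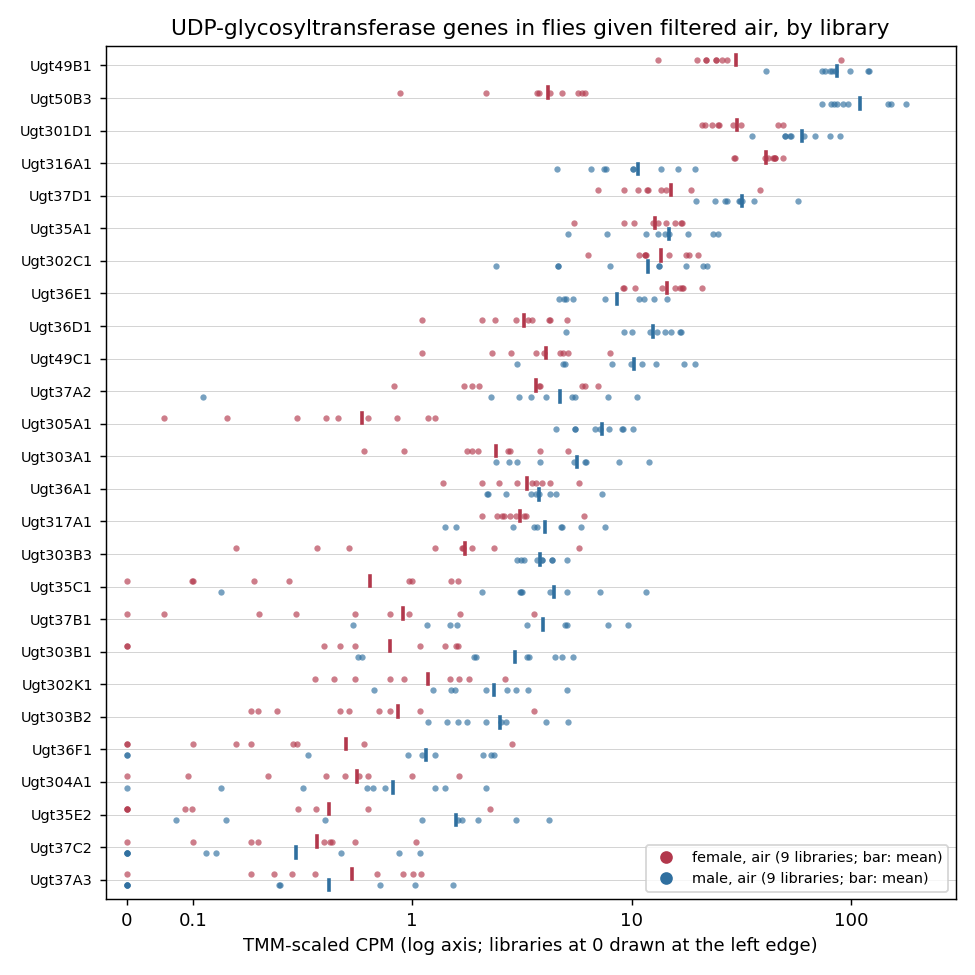
TMM-scaled CPM on a log axis of the 26 members tested over all libraries, in the 9 female and 9 male libraries from filtered air, with 1 point per library and a bar at the mean; libraries at 0 are drawn at the left edge. Ugt50B3 ranged from 73.9 to 179 CPM in males and from 0.883 to 6.13 CPM in females, while Ugt316A1 lay higher in females.

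Sex gave more calls in the family than any other comparison. In filtered air, averaged over the 3 days, 18 of 26 members tested differed between the sexes at an adjusted p under 0.05 by the edgeR quasi-likelihood test with Benjamini-Hochberg adjustment over all genes. Of these, 15 were higher in males and 3 higher in females. Among the 26, Ugt303B2, Ugt35E2 and Ugt37C2 passed the filter on low counts in the male fit but not in the female fit. Ugt303B2 and Ugt35E2 were called higher in males, the sex that admitted them, so these calls are descriptions only. Most of the transcriptome differed in the same test: 86.7% of the 13241 genes tested passed, 50.7% as higher in males and 35.9% as higher in females. At 69.2%, the share of members that passed was thus below that of all genes. The median log2 difference, females minus males, was -1.15 for the 26 members and -0.69 for all genes tested.

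Summed over the 35 members, air males had 408 ± 95.6 CPM (SD, n = 9) and air females 191 ± 57.5 CPM (SD, n = 9). Male sums ranged from 284 to 617 CPM and female sums from 126 to 327 CPM, so the ranges overlapped. The highest female sum was in replicate 1 of the air females on day 2, and the other 8 air female libraries reached 206 CPM at most. Whole-fly libraries cannot tell fewer cells of a type from less RNA per cell. Marker sums of other tissues also differed between the sexes: in the 34 libraries that are not mixed, Malpighian tubule markers (8 genes) had a median of 133 CPM in females and 436 in males, fat body markers (5 of 6 listed genes found) 1327 and 3009, and midgut markers (22 genes) 5469 and 13819. Ovary and eggshell markers (10 genes) had a median of 15597 CPM in females and 21.3 in males. The part of tissue makeup in the sex difference was not tested.

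The order of the members differed between the sexes. In air males the highest mean was that of Ugt50B3, 110.4 CPM, ahead of Ugt49B1 at 86.3 and Ugt301D1 at 60.1 CPM. The ranges of Ugt50B3 and Ugt49B1 overlapped, and the order of their means rested on day 2: on days 1, 2 and 7 the means were 79.7, 159.8 and 91.7 CPM for Ugt50B3 and 78.5, 81.5 and 98.8 CPM for Ugt49B1. In air females it was that of Ugt316A1, 41.1 CPM, ahead of Ugt301D1 at 30.2 and Ugt49B1 at 29.8 CPM, 3 means whose ranges over libraries overlapped. Ugt50B3 alone made up 27.0% of the summed family level in air males and 2.18% in air females, and Ugt316A1 2.61% and 21.6%.

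Ugt50B3 showed the widest sex difference of the family, and families 50 and 305 separated the sexes in every air library. Ugt50B3, the fly member of a family kept across insects, had 73.9, 91.8 and 179 CPM as lowest, median and highest of 9 air male libraries, and 0.883, 4.24 and 6.13 CPM in 9 air female libraries. No female library came near the male range. Its log2 difference was -4.69 (SE 0.40), with an adjusted p of 7.26e-11. Ugt305A1 had 4.55, 7.19 and 10.1 CPM in air males and 0.0736, 0.459 and 1.27 CPM in air females, a log2 difference of -3.89 (SE 0.53, adjusted p = 1.21e-07), again with no overlap. Ugt50B3 and Ugt305A1 were the 2 of 26 members whose 9 air female libraries all lay below the 9 air male libraries, against 29.3% of all genes tested. The gene of Ugt50B3 shares 4430 bp with TpnC4, a troponin C gene on the opposite strand, and the strand setting of the counting is not given in the sources used here. TpnC4 was at 7.78 ± 9.77 CPM in air males and 1.28 ± 0.942 CPM in air females (SD, n = 9), and the part of its reads in the Ugt50B3 values was not tested.

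In the other direction, Ugt316A1 was higher in every air female library than in any air male library, the 1 such member against 21.5% of all genes. It had 29.2, 44.4 and 49.3 CPM as lowest, median and highest in air females and 4.57, 10.2 and 19.4 CPM in air males. The log2 difference was 1.98 (SE 0.26, adjusted p = 9.55e-08). The exposed libraries that are not mixed kept this separation, with 29.1 to 60.0 CPM in 8 female and 5.06 to 10.7 CPM in 8 male libraries. In those 16 libraries 1 member lay wholly higher in females (24.6% of all genes) and 6 wholly higher in males (33.9% of all genes): Ugt50B3, Ugt305A1, Ugt36D1, Ugt37B1, Ugt49B1 and Ugt303A1.

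Family 36 held members with opposite sex differences side by side. Ugt36D1 and Ugt36E1 lie 53 bp apart on the plus strand of 2L, at 18823548 to 18826716 and 18826770 to 18829059, with Ugt36F1 974 bp before them. Ugt36D1 had 5.03, 13.0 and 16.8 CPM in air males and 1.10, 3.38 and 5.10 CPM in air females, which overlap only at the lowest male library. Its log2 difference was -1.93 (SE 0.32, adjusted p = 3.56e-06). Ugt36E1, an enzyme of olfactory neurons known to shape the discrimination of sex pheromones, had 4.65, 7.54 and 14.5 CPM in air males and 9.10, 15.8 and 21.0 CPM in air females, so that the ranges overlapped. It was higher in females by 0.81 (log2, SE 0.20, adjusted p = 6.05e-04). The other members of the family, Ugt36F1 and Ugt36A1 (Dorothy), did not pass, with log2 differences of -1.16 (SE 0.75) and -0.21 (SE 0.31). Ugt36A1 and Ugt36E1 also overlap genes on the opposite strand, by 464 and 48 bp. The gene opposite Ugt36E1, CG17597, was at 91.1 CPM in air females and 121 CPM in air males, above Ugt36E1 in both, and its part in the values was not tested.

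All tested members of families 49 and 303 were higher in males. Ugt49B1 had 40.9, 81.9 and 121 CPM as lowest, median and highest in air males and 13.2, 24.3 and 90.2 CPM in air females, a log2 difference of -1.64 (SE 0.25, adjusted p = 9.02e-07). The female value of 90.2 CPM came from replicate 1 of day 2, and the next female library had 27.2 CPM. Ugt49B1 shares 90 bp with CG44245 on the opposite strand, which had a difference in the same direction, with 81.9 ± 17.5 CPM in air males and 18.1 ± 4.08 CPM in air females (SD, n = 9). Its part in the Ugt49B1 values was not tested. Ugt49C1, 462 bp from it, had a log2 difference of -1.37 (SE 0.37). All 4 members of family 303 passed, with log2 differences from -2.39 for Ugt303B1 to -1.17 for Ugt303B3. Of these, Ugt303B2 had passed the filter on low counts in the male fit but not in the female fit. Ugt303B3 is near the threshold and lost the call in 13 of its 25 alternatives.

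Families 35 and 37 were split. Ugt35C1, the gene also called Ugt86Dd and linked to nicotine resistance in fly larvae, had a median of 3.18 CPM in air males and 0.275 CPM in air females, a log2 difference of -3.08 (SE 0.59). Ugt35E2, which passed the filter in the male fit but not in the female fit, differed by -3.02 (SE 0.71). Its median was 1.61 CPM in males and 0.0988 in females. The most abundant member of family 35, Ugt35A1, did not pass, at 14.8 ± 6.56 CPM in air males and 12.8 ± 3.87 in air females (SD, n = 9), a log2 difference of -0.16 (SE 0.24). In family 37, Ugt37B1 (-2.29, SE 0.54) and Ugt37D1 (-1.14, SE 0.30) were higher in males, and Ugt37A2 (-0.31, SE 0.46) and Ugt37A3 (0.39, SE 0.90) did not pass.

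Ugt37C2 was called higher in females, but at the low end of detection and not on every day. Its air libraries held 0 counts in all 3 males on day 1, and on day 7 its mean was higher in males (0.807 CPM) than in females (0.226 CPM). It was the 1 of 18 members called whose group means did not keep their order on all 3 days. The call was lost with DESeq2 (adjusted p = 0.127), with its size factors (0.0542) and without air female replicate 2 of day 1, within a range over 24 alternatives from 0.0104 to 0.127. Among members with a single gene in their family, Ugt301D1 was higher in males (-0.98, SE 0.20), and Ugt304A1 (-0.36, SE 0.67) and Ugt317A1 (-0.34, SE 0.29) did not pass. In family 302, Ugt302K1 was higher in males (-1.02, SE 0.47, adjusted p = 0.0438), a call lost in 13 of its 25 alternatives, and Ugt302C1 did not pass (0.27, SE 0.29).

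**Figure D2:**
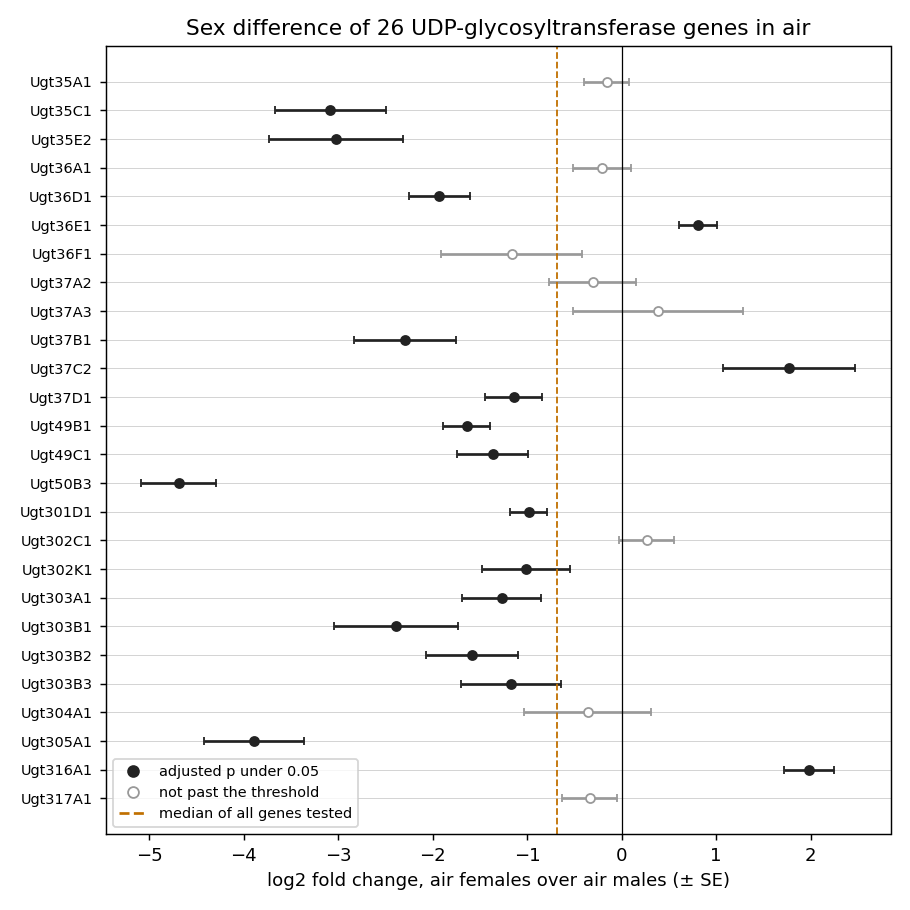
Log2 difference between air females and air males with its SE for the 26 members tested, in order of family number; filled points passed an adjusted p of 0.05, and the dashed line is the median of all genes tested. The points run from -4.69 for Ugt50B3 to 1.98 for Ugt316A1, and 15 filled points lie to the left of 0 and 3 to the right.

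The mixed libraries carried values between or across those of the sexes. In the mixed library whose title says male Ugt50B3 was at 30.8 CPM, and in the one whose title says female at 31.2 CPM. Ugt316A1 was at 49.3 and 46.6 CPM, both within the range of female libraries. The 2 libraries thus stood close to each other in the members that separate the sexes.

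**Figure D3:**
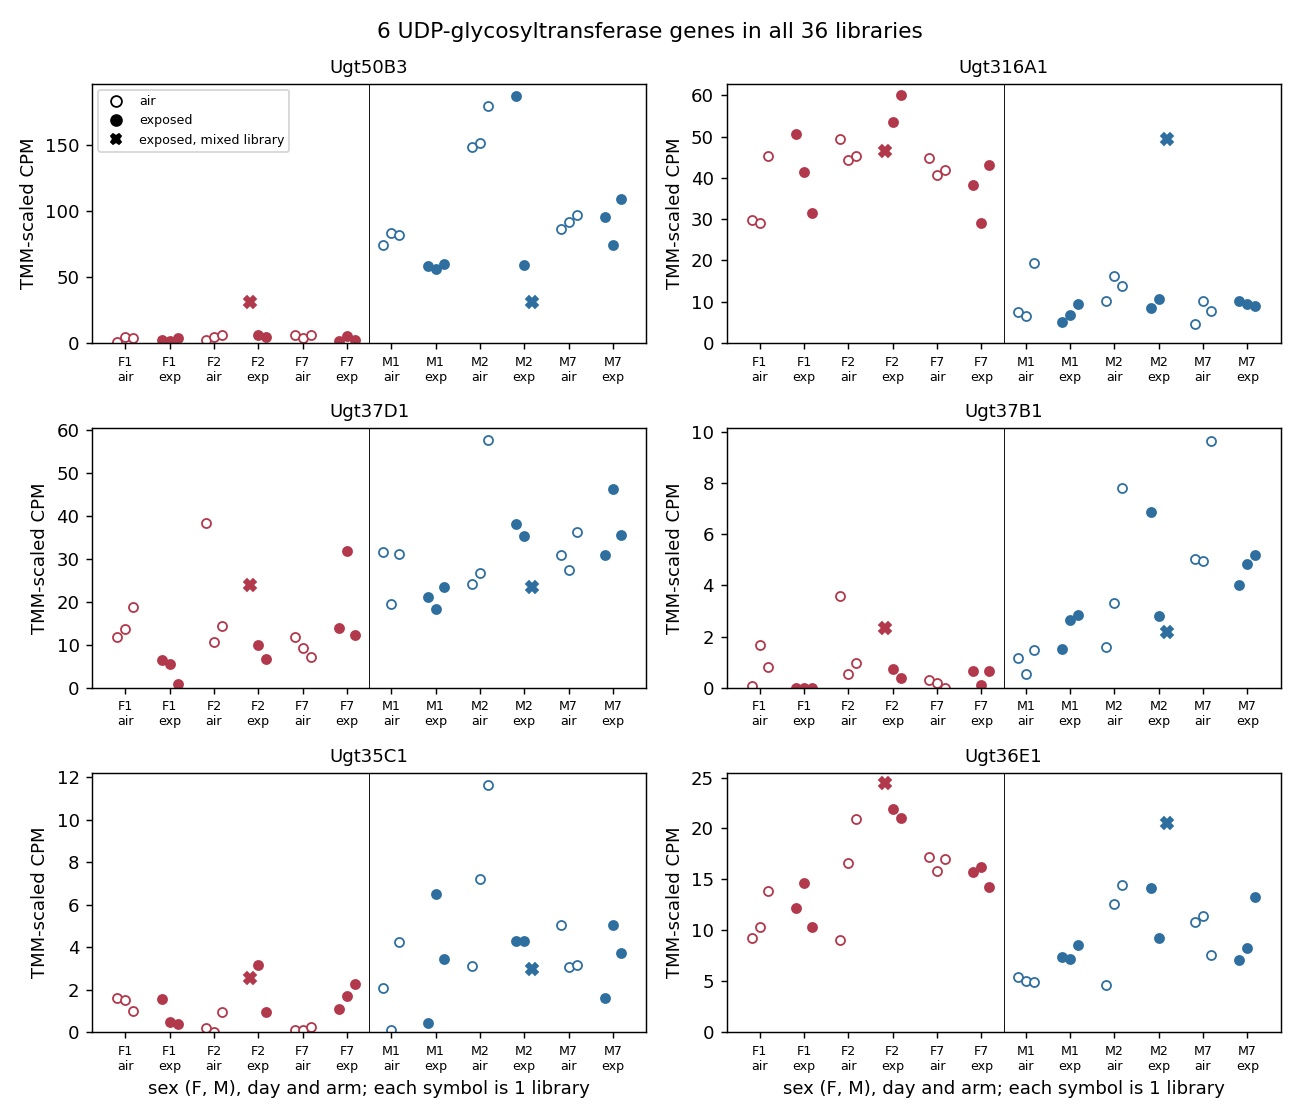
TMM-scaled CPM of Ugt50B3, Ugt316A1, Ugt37D1, Ugt37B1, Ugt35C1 and Ugt36E1 in each of the 36 libraries, by sex, day and arm; open circles are air, filled circles exposed and crosses the mixed libraries. In exposed females on day 1, Ugt37B1 is at 0 in all 3 libraries and Ugt37D1 lies between 0.909 and 6.34 CPM.

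For exposure, no member passed the threshold in any of the 6 comparisons of exposed with air flies (edgeR quasi-likelihood test, adjusted p under 0.05). Of all genes, 0.263% passed in females on day 1, 0.455% on day 2 and 0.0101% on day 7, and 0% in males on each of the 3 days. At an unadjusted p under 0.05, 4, 2 and 2 of 23 members passed in females on days 1, 2 and 7, and 2, 2 and 0 of 26 in males. The same limit was passed by 12.7%, 9.52% and 3.28% of all genes in females and by 3.17%, 21.8% and 0.932% in males. The day 2 values hold the mixed libraries. Without them no member had an adjusted p under 0.05 on day 2, beside 0.563% of all genes in females and 0% in males. DESeq2 called 1 member, Ugt37B1 in females on day 1, and none in the other 5 comparisons. The shares of all genes above are those of edgeR, and none is given beside the DESeq2 call. The smallest adjusted p of any member was 0.146 in females and 0.176 in males.

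In females on day 1, most members had lower values after exposure. The log2 fold change was negative in 19 of 23 members, with a median of -0.65 (quartiles -1.52 and -0.31), against -0.00 for all 9893 genes (quartiles -0.28 and 0.24). With the 2 members at 0 in all exposed libraries set to their bound against 3 counts per library, the median was -0.53. Leaving out exposed replicate 1 or 2 moved it to -1.25 or -1.28, and over all 6 libraries left out in turn it ranged from -1.28 to -0.56. Exposed replicate 3 had the lowest Ugt sum. The sums were 126, 165 and 206 CPM in air and 140, 139 and 96.6 CPM after exposure, which overlap. In 5 of 23 members all exposed libraries lay below all air libraries (9.24% of all genes), and in none above (7.32% of all genes).

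The 4 tested members of family 37 all had negative values on that day, from -1.28 for Ugt37A2 to -6.37 for Ugt37B1, the last a fitted value against an arm at 0 counts. Outside that family Ugt36F1, also at 0 counts after exposure, had -4.29 and Ugt304A1 -4.12. Ugt37B1 had 0.0736, 1.65 and 0.796 CPM in the air libraries, 32 counts in all, and 0 counts in each exposed library. Taken against 3 counts per exposed library it was at least 3.90-fold lower. Its adjusted p was 0.146 by edgeR, 0.0386 by DESeq2 and 0.0426 with all 36 libraries in 1 fit, in a range of 0.0386 to 0.318 over 13 alternatives. Ugt37D1, the most abundant member of the family, had 11.8, 13.7 and 18.7 CPM in air and 6.34, 5.63 and 0.909 CPM after exposure, with no overlap. Its fold change on the log2 scale was -1.76 (SE 0.61), with an adjusted p of 0.222.

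Neighbouring Ugt304A1 and Ugt303A1, 120 bp apart on 3R, were also low in those flies. Ugt304A1 had 0.221, 0.575 and 0.995 CPM in air and 0, 0.0678 and 0 CPM after exposure, 21 counts against 1, a ratio of 23.4 with an exact 95% counting interval of 3.76 to 967. Its adjusted p was 0.214. Ugt303B2, which lies elsewhere on 3R, was below the filter in females, with 20 counts in air and 0 after exposure, and was called with all 36 libraries in 1 fit (adjusted p = 0.0467). Ugt303A1 had 2.80, 3.81 and 1.99 CPM in air and 0.216, 1.83 and 0 CPM after exposure, a change of -2.03 on the log2 scale, with an SE of 0.92 and an adjusted p of 0.362. Ugt316A1, the member of highest female level, had 29.7, 29.2 and 45.3 CPM in air and 50.7, 41.4 and 31.4 CPM after exposure, which overlap. The next 2 by level, Ugt301D1 and Ugt49B1, had negative values of -0.65 and -0.46.

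Midgut, antennal and fat body markers were also lower in these flies. On day 1 the 22 midgut markers summed to 6783, 9980 and 5469 CPM in air females and to 2625, 2694 and 1759.6 CPM in exposed females. The 10 antennal markers summed to 366, 447 and 210 CPM in air and 139, 91.0 and 134 CPM after exposure, and the 5 fat body markers to 1460.3, 1639 and 1240.3 CPM against 936, 1013 and 793 CPM. All 3 lists were lower in every exposed library than in any air library of that day. Malpighian tubule markers overlapped, at 133, 147 and 139.8 CPM against 127, 178 and 63.4 CPM. The part of these tissues in the Ugt values was not tested.

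In females on day 2, 18 of 23 members had negative log2 fold changes, with a median of -0.33 against -0.00 for all genes. Without the mixed libraries, 5 of 25 members tested were positive and the median was -0.34. The negative median rested on 1 library: without replicate 1 of the air females, which had 327 CPM of Ugt transcripts against 184 and 198 CPM in its replicates, the median was 0.09. The same library held 26614 CPM of midgut markers, against 7789 and 7188 CPM in its replicates. The exposed libraries that are not mixed held 4074 and 1596 CPM of midgut and 54.2 and 83.3 CPM of antennal markers. Both lists lay there below every air library of that day. The Ugt sums of these libraries, 233 and 182 CPM, did not both lie below air. Fat body and Malpighian tubule markers overlapped. The part of these tissues was not tested. All exposed libraries lay above all air libraries for 1 of 23 members (6.05% of all genes) and below for none (4.89%). That member was Ugt36E1, with 9.10, 16.6 and 21.0 CPM in air and 24.5, 21.9 and 21.0 CPM after exposure, the first from the mixed library. This was 0.50 on the log2 scale with an SE of 0.24 and an adjusted p of 0.537, and 0.54 without the mixed libraries.

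Ugt35C1 had 0.190, 0 and 0.967 CPM in air females on day 2 and 2.57, 3.16 and 0.945 CPM after exposure, with 1 exposed library inside the air range and the value of 2.57 CPM from the mixed library. On the log2 scale this was 2.43 with an SE of 0.96 and an adjusted p of 0.437, and 2.43 without the mixed libraries, with an adjusted p of 0.555. Ugt50B3 had 2.18, 4.24 and 5.92 CPM in air and 31.2, 6.32 and 4.25 CPM after exposure, where the value of 31.2 CPM is that of the mixed library. The log2 value of 1.62 (SE 0.69), whose adjusted p was 0.493, was 0.44 (SE 0.67) without the mixed libraries.

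In females on day 7 the direction was the opposite of day 1. The log2 fold change was positive in 19 of 23 members, with a median of 0.66 (quartiles 0.39 and 1.04) against -0.00 for all genes. In 7 of 23 members all exposed libraries lay above all air libraries (7.21% of all genes), and in none below (11% of all genes). These were Ugt35C1, Ugt36F1, Ugt37D1, Ugt49B1, Ugt301D1, Ugt303A1 and Ugt304A1. From a negative value on day 1 to a positive value on day 7 went 17 of 23 members, and no share of all genes is given beside this count. The Ugt sums of day 7 overlapped, at 200, 166 and 146 CPM in air and 194, 257 and 206 CPM after exposure. Midgut markers on day 7 summed to 5258, 5364 and 2509 CPM in air females and to 5965, 5708 and 6484 CPM in exposed females, and so were also higher in every exposed library. Fat body markers overlapped, at 1336, 1204 and 1109 CPM against 1219.9, 1746 and 1294 CPM, as did antennal markers, at 165, 141 and 81.4 against 156, 249 and 203 CPM, and Malpighian tubule markers, at 183, 219 and 143 against 163, 118 and 117 CPM. The part of these tissues in the Ugt values was not tested.

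Ugt35C1 had the smallest p of that day. It was at 0.0988, 0.101 and 0.275 CPM in air and 1.09, 1.69 and 2.27 CPM after exposure, 3.35 on the log2 scale with an SE of 1.07 and an adjusted p of 1.00. The air libraries held 1, 1 and 3 counts. Ugt304A1 went from 0.494, 0.403 and 0 CPM in air to 1.91, 1.48 and 1.51 CPM after exposure (2.46 on the log2 scale, SE 1.11). Of the abundant members, Ugt301D1 had 31.7, 29.1 and 24.9 CPM in air and 32.8, 67.1 and 33.8 CPM after exposure, and Ugt49B1 24.3, 19.8 and 13.2 against 24.4, 33.8 and 29.8 CPM. In Ugt49B1 the lowest exposed library lay only narrowly above the highest air library. Ugt36F1 had 3 counts over the air libraries and 24 over the exposed ones, a ratio of 7.98 with an exact 95% counting interval of 2.42 to 41.4.

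**Figure D4:**
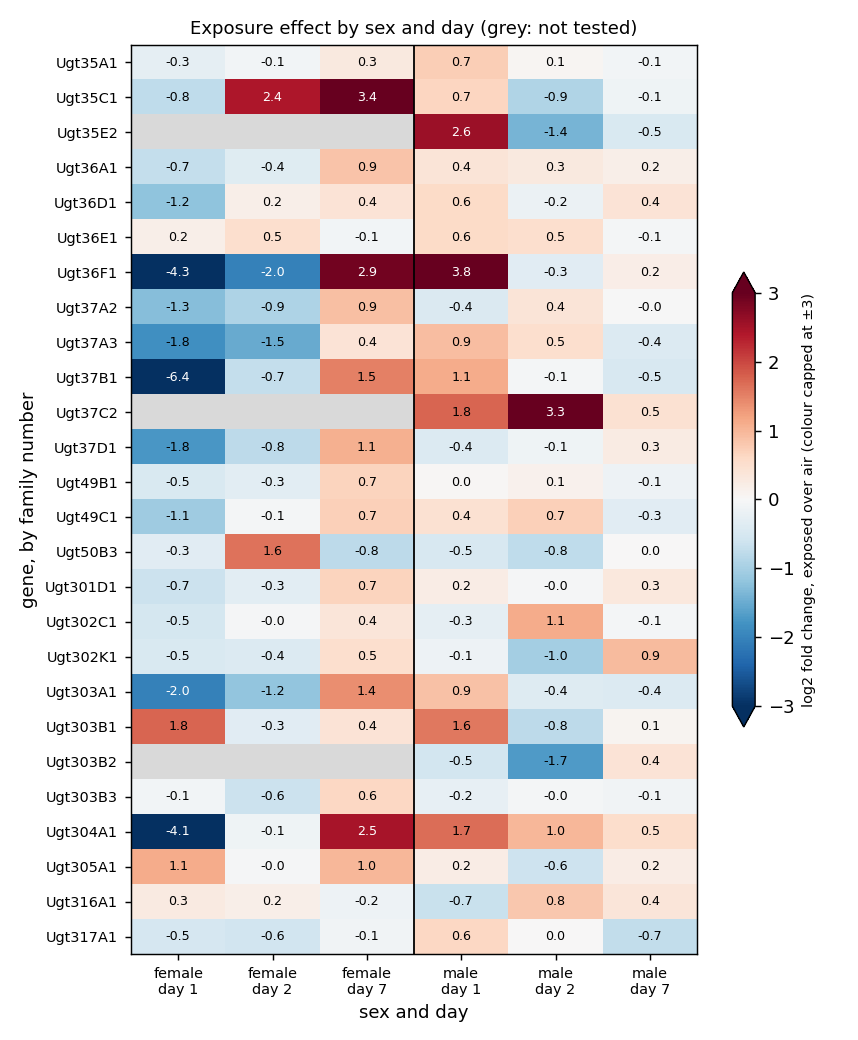
Log2 fold change of exposed over air flies for each member tested, by sex and day, in order of family number, with the colour capped at 3 in either direction and grey where a member was not tested. No cell passed an adjusted p of 0.05; in females 19 of 23 values are negative on day 1 and 19 of 23 positive on day 7. The values of Ugt37B1 and Ugt36F1 in females on day 1 and of Ugt37C2 in males on day 1 rest on an arm at 0 counts and depend on the prior count.

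In males on day 1, 18 of 26 members had positive log2 fold changes, with a median of 0.51 (0.42 with Ugt37C2 at its bound) against 0.00 for all 12871 genes. All exposed libraries lay above all air libraries in 5 of 26 members (6.7% of all genes) and below in 1 (6.48%). All 4 members of family 36 and all 3 tested members of family 35 had positive values. The smallest p was that of Ugt36F1, with 0.334, 0 and 0 CPM in air and 2.95, 0.440 and 1.57 CPM after exposure (adjusted p = 1.00). Ugt35E2 went from 0.0835, 0.402 and 0.142 CPM to 2.36, 1.06 and 0.587 CPM (2.57 on the log2 scale, SE 1.05). The 1 member below in every library was Ugt50B3, with 73.9, 83.6 and 81.6 CPM in air and 58.7, 56.2 and 59.6 CPM after exposure. Ugt303B1, next by p, had 3.42, 1.94 and 0.568 CPM in air and 2.02, 4.66 and 11.4 CPM after exposure, which overlap.

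On days 2 and 7 the male values lay on both sides of 0. On day 2, 12 of 26 were positive, with a median of -0.04 against 0.07 for all genes, and without the mixed libraries 16 of 27 tested were positive, with a median of 0.11 against 0.01. No overlap was seen in 1 member upward (6.04% of all genes) and 1 downward (5.49%). The latter, Ugt303B2, had 4.08, 1.77 and 2.53 CPM in air and 1.72, 0.226 and 0.573 CPM after exposure (-1.69 on the log2 scale, SE 0.73, with an adjusted p of 0.183), and the value without the mixed libraries was -1.50. Without exposed replicate 1, 2 members passed, and for Ugt303B2 the adjusted p was then 0.0332. That fit keeps the mixed library beside exposed replicate 2, and no share of all genes is given for it. Over 14 alternatives the adjusted p of Ugt303B2 ranged from 0.0332 to 0.742, the highest being that without the mixed libraries. Ugt37C2 had 3 counts over the air libraries and 26 over the exposed ones, a ratio of 10.8 with an exact 95% counting interval of 3.30 to 55.6. Ugt302C1 had 2.42, 7.98 and 21.3 CPM in air and 17.5, 28.6 and 20.9 CPM after exposure, which overlap. Replicate 3 of these exposed males is mixed, and without the mixed libraries the log2 values were 3.90 for Ugt37C2 and 1.15 for Ugt302C1, neither past the threshold.

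On day 7, 13 male values were positive and 13 negative, with a median of 0.01 against 0.00. None of the 26 members was without overlap in either direction (3.97% of all genes upward, 4.48% downward). The smallest p was that of Ugt302K1, whose log2 fold change of 0.94 (SE 0.75) became -0.02 without exposed replicate 2.

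**Figure D5:**
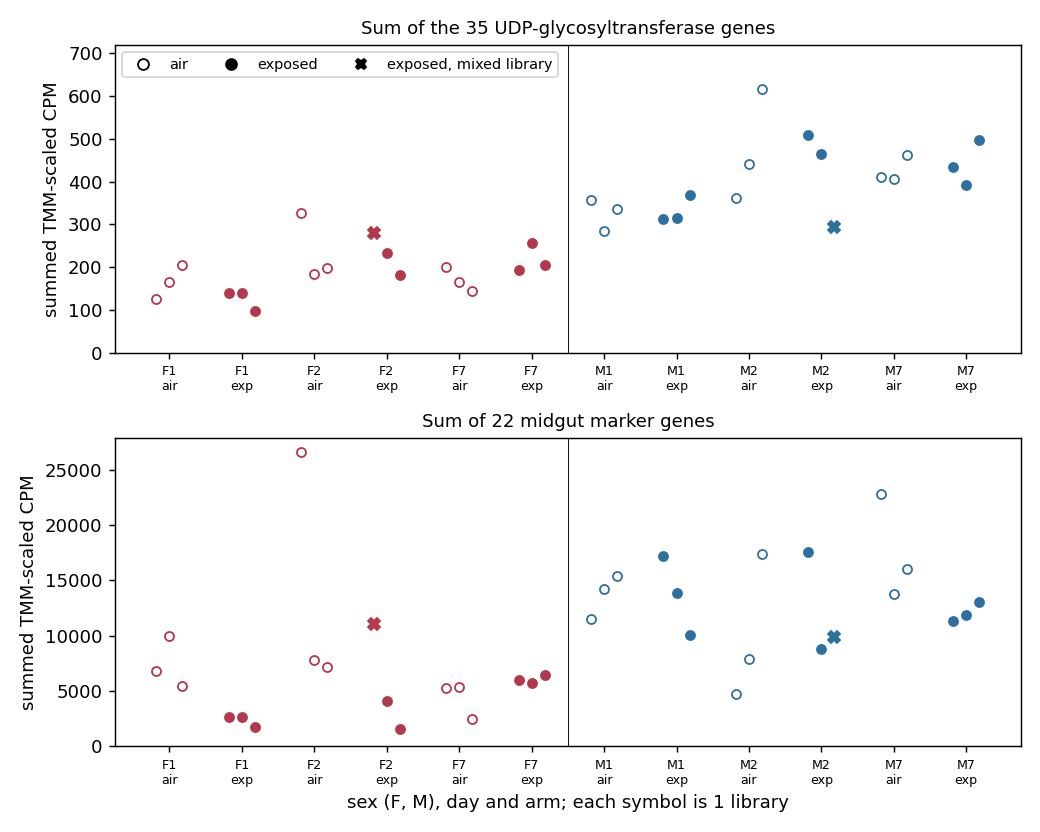
Summed TMM-scaled CPM per library of the 35 members (above) and of 22 midgut markers (below), by sex, day and arm; open circles are air, filled circles exposed and crosses the mixed libraries. The highest female library in both panels is replicate 1 of the air females on day 2, at 327 and 26614 CPM.

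Whether the exposure effect differed between the sexes was tested in the fit of all 36 libraries. On day 1, 0 of 26 members passed (0.0151% of all genes) and 6 had an unadjusted p under 0.05 (8.04% of all genes). DESeq2 called Ugt37B1 and Ugt36F1, both lower in exposed females relative to males. Shares of all genes for these tests are those of edgeR, and none is given beside the DESeq2 calls. On day 2, 1 of 26 passed (12.2% of all genes). Without the mixed libraries 0 members and 11 of 13621 genes passed. The member called was Ugt50B3, with a difference in log2 fold change, females minus males, of 2.53 (SE 0.85, adjusted p = 0.0490). Its exposed libraries of that day had 31.2, 6.32 and 4.25 CPM in females and 187, 59.0 and 30.8 CPM in males, where 31.2 and 30.8 CPM are the mixed libraries. Without them the difference was 0.71 (SE 0.67, adjusted p = 0.873), and over 18 alternatives the adjusted p ranged from 0.00570 to 0.873. With the mixed libraries in the fit, DESeq2 called Ugt50B3 and Ugt35C1. On day 7, 0 of 26 passed (0% of all genes), 1 had an unadjusted p under 0.05 (1.32% of all genes) and DESeq2 called none.

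Change of the exposure effect among the 3 days was tested within each sex. In females 0 of 23 members passed (0.445% of all genes) and 7 had an unadjusted p under 0.05, as had 10.7% of all genes: Ugt35C1, Ugt36F1, Ugt37B1, Ugt37D1, Ugt301D1, Ugt303A1 and Ugt304A1. The smallest adjusted p was 0.244, for Ugt304A1. In males 0 of 26 passed (0% of all genes) and 2 had an unadjusted p under 0.05, as had 7.65% of all genes. DESeq2 called none in either sex. Without the mixed libraries 0 of 25 members passed by edgeR in females (0.849% of all genes) and 0 of 27 in males (0%).

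Differences among days were also tested within each arm. No member passed by edgeR in air females (0.131% of all genes passed), exposed females (3.68%), air males (0.155%) or exposed males (0.855%). Without the mixed libraries none passed either, and the shares of all genes were 0.207%, 2.34%, 2.70% and 0.310% in that order. At an unadjusted p under 0.05 there were 2 and 11 of 23 members in air and exposed females, and 5 and 3 of 26 in air and exposed males. In the same order, 14.0%, 19.2%, 8.31% and 19.5% of all genes passed that limit. DESeq2 called 0, 5, 2 and 0 members, beside 278 and 795 of 15535 genes in air and exposed females and 221 and 656 of 16177 genes in air and exposed males.

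In exposed females the members were lowest on day 1. From day 1 to day 2 the value was positive in 22 of 23 members, with a median of 0.96 (0.92 with the 2 members at 0 at their bound), and from day 1 to day 7 in 21 of 23, with a median of 1.53 (1.14 with bounds), against 0.02 and 0.00 for all genes. Without the mixed libraries the median from day 1 to day 2 was 0.88, with 23 of 25 positive. In air females the same medians were 0.35 and 0.06. Ugt49C1 in exposed females had 2.52, 0.678 and 0.227 CPM on day 1, 6.70, 7.90 and 2.93 on day 2 and 6.65, 7.18 and 4.64 on day 7. Day 1 thus lay below the other days, and the value of 6.70 CPM is from the mixed library. Its adjusted p by edgeR, with the mixed library in the fit, was 0.0886. The 5 members called by DESeq2 in exposed females were Ugt304A1, Ugt37B1, Ugt37D1, Ugt49C1 and Ugt50B3. All 5 calls include the mixed library of day 2. It was above the other day 2 libraries for Ugt37B1 (2.34 CPM against 0.743 and 0.378) and Ugt37D1 (23.9 against 9.85 and 6.71). The same held for Ugt50B3 (31.2 against 6.32 and 4.25), while for Ugt304A1 and Ugt49C1 it lay between the other libraries. Midgut markers in exposed females summed to at most 2694 CPM on day 1 and at least 5708 CPM on day 7. On day 2 they were at 4074 and 1596 CPM, the latter below all of day 1, and at 11028 CPM in the mixed library.

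Air males also had lower values on day 1 than later, with no exposure. From day 1 to day 2 the value was positive in 23 of 26 members, with a median of 0.69 (0.58 with Ugt37C2 at its bound), and from day 1 to day 7 in 22, with a median of 0.76, against -0.03 and 0.00 for all genes. Ugt37B1 had 1.17, 0.537 and 1.49 CPM on day 1, 1.59, 3.33 and 7.82 on day 2 and 5.05, 4.96 and 9.67 on day 7 (adjusted p = 0.239 by edgeR and 0.0361 by DESeq2). Ugt50B3 was highest on day 2, with 73.9, 83.6 and 81.6 CPM on day 1, 148, 152 and 179 on day 2 and 86.5, 91.8 and 96.7 on day 7. These 3 days did not overlap, and the adjusted p was 0.581 in the fit of 18 male libraries and 0.0131 when only the 9 air male libraries were fitted. In exposed males the medians were 0.19, with 15 of 26 positive, and 0.29. Without the mixed libraries the first was 0.32, with 21 of 27 positive.

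The supply of the sugar donor and the proteins around the pathway gave few calls outside sex. Of 13 tested genes that make, move or use UDP-sugars or make their precursors, none passed in the 6 exposure comparisons. UGP, which makes UDP-glucose, differed among days in exposed females (adjusted p = 0.0281), air males (0.0271) and exposed males (0.0252), with edgeR adjusted p of 0.0436, 0.00389 and 0.0110 without the mixed libraries, and its day 2 value exceeded that of day 1 by 1.01, 1.51 and 1.15 on the log2 scale. Between the sexes in air, 11 of 13 passed, 8 as higher in males. As 86.7% of all genes passed that test, 50.7% as higher in males and with a median of -0.69, the counts by sex of this list and of those that follow are descriptions only. Hexokinase gene Hex-C was at 170.0 ± 46.8 CPM in air males and 44.4 ± 21.5 in air females (SD, n = 9).

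Of 7 xenobiotic regulators, none passed in an exposure or day comparison, and all 7 differed by sex in air, 4 as higher in males (among them cnc, the fly Nrf2, by -0.66, SE 0.09) and 3 as higher in females (Hr96, tgo and EcR). Of 12 tested efflux and organic anion transporters, none passed for exposure. All 12 differed by sex, 11 as higher in males, with a median of -1.62. Mdr49 was at 51.4 ± 15.8 CPM in air males and 9.18 ± 6.59 in air females (SD, n = 9). The transporter Oatp33Eb differed among days in exposed females (adjusted p = 0.0149, and 0.0193 without the mixed libraries). The gene mmy, which makes UDP-N-acetylglucosamine, passed the test of a sex difference in the exposure effect on day 2 (-1.11, SE 0.37, adjusted p = 0.0451), a call lost without the mixed libraries (-0.82, adjusted p = 0.677).

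Other large detoxification families were counted in the same way. Of 78 cytochrome P450 genes tested by sex, 67 passed, 59 as higher in males, with a median of -1.66, and of 35 glutathione transferases 29 passed, 18 as higher in males, with a median of -1.21. In exposed females on day 1 the medians were -0.30 for 70 cytochrome P450s, of which 1 passed (Cyp313a1, downward), and -0.17 for 33 glutathione transferases, of which none passed (1 without the mixed libraries). On day 7 they were 0.31 and 0.30, with none passing. The difference between these families and the Ugt genes was not tested.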

How the data were processed

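Whole-fly RNA was counted in 36 libraries. The authors deposited whole-number counts for each gene symbol, not normalized. Their tools were fastp, STAR and HTSeq and their genome build dm6, per the submitters' processing notes. For tool versions and the strand setting, the sources used here say nothing. The entry with no gene symbol, at most 0.000107% of a library, was left out. Depth per library is given with the results; it sets the precision, and the limit of detection is taken as 3 counts.

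Members, gene lists, comparisons and most alternatives were chosen with earlier results of these data known. Annotation came from BDGP6 (Ensembl) by symbol, for 35 of 35 members. All genes were fitted with edgeR 4.0.16 in R 4.3.3: filterByExpr (minimum count 10, minimum total 15), TMM scaling and a quasi-likelihood F test, with each sex fitted apart (18 libraries in 6 groups) for exposure and days, and all 36 libraries together for sex and for differences between the sexes. P-values were adjusted by Benjamini-Hochberg over all genes of a comparison, with a threshold of 0.05. SE is the log2 fold change divided by the root of F. Some of the comparisons were also run on simulated counts, without mixed libraries or scaling factors. The outcome is not given here.

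Libraries with over 100 CPM of roX1 and over 1000 CPM of Yp1 were called mixed. Named genes were the 3 members of smallest p in each exposure comparison, every member past a threshold, the 6 of highest mean, and up to 4 in each direction by sex with at least 5 CPM. Others given with values (Ugt49C1 and Ugt303A1, members without overlap, members that missed the sex threshold, and single genes of the lists) were picked with their values in view. Each result was recomputed with DESeq2 1.42.0, with its size factors, without a filter, with at least 5 CPM in 3 libraries, with other sets of libraries, by a rule of over 1.5-fold with unadjusted p under 0.05, with the replicate number as a block and leaving out each library; library totals without TMM for exposure were added after seeing the data. The lists of pathway genes were also tested without the 2 mixed libraries, an alternative chosen after seeing the data.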

Additional observations from a re-analysis of the deposited data

Results flagged for a closer look

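Ugt50B3 on day 2 was the 1 member whose exposure effect differed between the sexes by the test of the difference, 2.53 on the log2 scale (females minus males). The values that move with it are those of the mixed libraries, 31.2 CPM among the females and 30.8 CPM among the males. Without these libraries the difference was 0.71 and did not pass.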

How the results depend on the processing

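Of the members counted by sex in air, 15 higher in males and 3 higher in females, leaving out each library gave 14 to 17 and 2 to 4. Size factors of DESeq2 shifted the median sex difference of all genes from -0.69 to -1.06, and the counts were then 17 and 2; relative to the median of all genes the 18 members kept their sign. A filter of 5 CPM in 3 libraries left 10 and 2. By the rule of over 1.5-fold and an unadjusted p under 0.05, exposure gave 4, 2 and 2 members in females on days 1, 2 and 7 and 2 and 2 in males on days 1 and 2. Days then gave 2 in air females, 11 in exposed females, 5 in air males and 3 in exposed males. Change of effect among days gave 7 in females and 2 in males, and the sex difference of the effect 6, 3 and 1 on days 1, 2 and 7. The DESeq2 test gave 1 for exposure in females on day 1, 5 for days in exposed females, 2 for days in air males, and 2 each for the sex difference on days 1 and 2. All 36 libraries in 1 fit gave 2 for exposure in females on day 1, 9 for days in exposed females and 1 in exposed males. No filter gave 2 for days in exposed females, and only the libraries compared gave 1 there and 1 in air males. For the sex difference on day 2, the count of 1 became 0 with DESeq2 size factors, no filter or the mixed libraries left out. Leaving out each library in turn gave 0 to 2 for days in exposed females (2 without replicate 1 of day 1), 0 to 2 for days in exposed males and for exposure in males on day 2 (2 without exposed replicate 1 of day 2 in both), 0 to 1 for change among days in males, and 0 to 1 for the sex difference on days 1 and 2. Ugt302K1 in males on day 7 ranged from -0.0234 to 1.33. The causes of these changes were not tested. The counts stand without the share of all genes under each alternative, so they do not tell whether members passed more often than other genes. Without exposed replicate 1 of day 2, the male fits keep the mixed library beside replicate 2. Library totals without TMM, chosen after seeing the data, moved the day 2 female median from -0.33 to -0.06, beside 0.19 for all genes.

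Same-numbered replicates of the arms correlated at -0.073 to 0.272 in their deviations, so the numbers were not taken as pairs. With the replicate number as a block, the sex difference on day 2 gave 0 members, and the sex counts were 15 and 3 as without the block; the other counts stayed at 0. Depth limits the 9 members never tested and the folds of members with 3 or fewer counts in an arm.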
